A study of Mus musculus with 35 samples.

Results

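Livers in which E2f7 was deleted were compared with wild-type livers in mice aged 3 weeks. The comparison used 7 of the 35 Affymetrix expression arrays of the study, chosen by their labels: 4 arrays of E2f7 knockout liver and 3 arrays of wild-type liver. The knockout carried Albumin-Cre with E2f7loxp/loxp alleles on an FVB background, and the controls were labelled wild type on the same background. The labels do not say whether the wild-type mice carried Cre or floxed alleles, nor that each array stood for an animal of its own. The p-values therefore measure the spread between arrays of the same group, which may be technical. Albumin-Cre acts in hepatocytes. The RNA came from whole liver, in which endothelial cells, macrophages and other cells keep an intact E2f7 gene. Arrays of E2f7 knockout (4) and wild-type (3) liver at 2 months were read as well. So were arrays of E2f8 knockout liver (Albumin-Cre, 4 arrays) and of E2f7/E2f8 double knockout liver (Albumin-Cre, 4 arrays) at 3 weeks. All of these are compared below only to show where the E2f7 knockout differs or does not. The limma p-values rest on a spread estimated from all 35 arrays. These include E2f8 and double knockout liver at 2 months and Mx1-Cre E2f1-/- E2f2-/- E2f3loxp/loxp liver at 2 months.

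E2F transcription factors control the genes that a cell needs to enter and complete S phase. Most of them bind DNA with a DP partner. E2f7 and E2f8 are atypical members that carry a pair of DNA-binding domains of their own, need no DP partner and act mainly as repressors of E2F target genes late in the cycle. In the liver they are known for their part in hepatocyte polyploidy, which builds up after weaning when hepatocytes complete S phase without cytokinesis. The age of 3 weeks falls at the start of this phase.

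The core DNA letters read by E2F proteins were searched for in RefSeq promoter sequences (GRCm38.p6), each running from 250 bases before to 50 bases after a gene's start, because the gene groups described below are defined by their use in S phase. The 4 motifs searched on both strands were TTTCCCGC, TTTCGCGC, TTTGCCGC and TTTGGCGC. At least 1 of them was present in the promoters of 550 of 14452 measured genes (3.81%). The share was 34.9% (15 of 43) among DNA replication genes, 22.2% (6 of 27) among DNA repair genes, 10.3% (6 of 58) among mitosis genes and 50% (5 of 10) in the E2F family with its partners. None of 17 macrophage genes and none of 22 hepatocyte genes held one. The following stretches show the motif in capitals within the promoter of E2f7 itself and of the 2 replication and 2 repair genes with the smallest p-values among those that held one upstream of the start; a motif in the opposite orientation reads GCGGGAAA or GCGCGAAA.
E2f7 (chr10:110745201-110745288, plus strand): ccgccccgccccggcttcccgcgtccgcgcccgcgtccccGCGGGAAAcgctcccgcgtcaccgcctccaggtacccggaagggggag
Rfc3 (chr5:151651209-151651258, minus strand): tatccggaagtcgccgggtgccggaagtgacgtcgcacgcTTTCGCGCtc
Dnmt1 (chr9:20952795-20952873, minus strand): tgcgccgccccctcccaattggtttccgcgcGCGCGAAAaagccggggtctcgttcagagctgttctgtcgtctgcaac
Fancg (chr4:43010306-43010393, minus strand): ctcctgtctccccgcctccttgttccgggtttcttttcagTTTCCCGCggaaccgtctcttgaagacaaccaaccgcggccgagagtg
Bard1 (chr1:71103134-71103221, minus strand): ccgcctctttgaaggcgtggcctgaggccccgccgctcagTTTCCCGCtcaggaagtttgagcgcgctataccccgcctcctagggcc
Several replication and repair genes with smaller p-values, described below, held no motif in their promoters: Fen1, Asf1b, Orc6, Rrm2, Rad54l, Rad18, Xrcc1 and Fanca. Pole2 held one after the start. A match of letters is a description and does not show that E2f7 binds there.

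All values are log2 probe set signals made by RMA, and 18193 genes were measured, each through its brightest probe set. A difference is the knockout mean minus the wild-type mean on the log2 scale. The arrays held strong liver transcripts: albumin (Alb) lay at 14.38 to 14.40 in the E2f7 knockout and at 14.34 to 14.43 in wild type. Eif2s3y, a Y-linked gene, lay at 7.62 to 7.96 in the knockout and 7.84 to 8.07 in wild type. A measure of RNA degradation, the mean 3' minus 5' signal of the control probe sets for Gapdh and Actb, averaged 1.09 ± 0.0264 in the knockout (SD, n = 4) and 1.13 ± 0.0553 in wild type (SD, n = 3). A two-sided exact permutation test of the difference gave p = 0.2, where 0.0286 is the smallest value the design allows. Across all probe sets other than controls, pairs of knockout arrays correlated with r of 0.9938 to 0.9961 and pairs of wild-type arrays with r of 0.9912 to 0.9937. Wild-type replicate 3 stood apart from all others (r of 0.9904 to 0.9923), and values without it are given for the gene lists and the named genes that it moved most.

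The arrays did not show the deletion of E2f7. The gene (chr10:110745439-110787384) is represented by 1 probe set, whose log2 signal was 4.69, 4.85, 4.70 and 4.85 on the 4 knockout arrays, against 4.89, 4.76 and 4.62 on the 3 wild-type arrays. The groups overlap, and the difference was 0.01 (SE 0.15, limma adjusted p = 0.990). The signal is low, at the 29.9th percentile of all genes, and the sources used here do not place the probes relative to the deleted exons, so the probe set checks nothing about the labels. Per the series' design text, deletion was genotyped by PCR on DNA of every sample. Of 36 measured genes within 5 megabases of E2f7 on either side, 0 passed the test, and the median difference of the 36 was 0.03. An unadjusted p under 0.05 was reached by 4 of them, near the share of 11.2% over all genes.

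Few genes changed in the E2f7 knockout at this age: 8 of 18193 genes (0.044%) passed a Benjamini-Hochberg adjusted p of 0.05, of which 2 rose (0.011%) and 6 fell (0.033%). The genes that fell include Aldh6a1 of valine breakdown, the steroid reductase Akr1c14 and the B cell survival cytokine Tnfsf13b, and those that rose are Yae1d1 and Mettl21a. None belongs to the lists of E2F, replication, mitosis or repair genes. An unadjusted p under 0.05 was reached by 2036 genes (11.2%), 1031 of them higher (5.67%) and 1005 lower (5.52%) in the knockout. Over all genes the median difference was 0.004, and the middle range of differences ran from -0.09 to 0.09 (the interquartile range). The 8 calls rest on a spread estimated from all 35 arrays: a fit of the 3-week arrays alone gave 0 calls, with 1568 genes at an unadjusted p under 0.05. Leaving out a wild-type array gave 265 calls (replicate 1), 1 (replicate 2) or 1 (replicate 3), and leaving out a knockout array gave 2 (replicate 3), 36 (replicate 4) or 8 to 9 (the other two).

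Aldh6a1 (chr12:84430717-84451024) encodes the mitochondrial methylmalonate-semialdehyde dehydrogenase of valine and thymine breakdown. Its signal was 10.60, 10.63, 10.65 and 10.82 in the E2f7 knockout, against 11.05, 11.16 and 11.35 in wild type. The groups do not overlap, and the lowest wild-type array lies above the highest knockout array. The difference of -0.51 (SE 0.07, limma adjusted p = 0.000285) left the knockout at 70.2% of the wild-type signal. It was the only one of the 8 genes that passed in each of 7 fits leaving out 1 array, with adjusted p between 6.69e-05 and 0.0193, and it did not pass when only the 3-week arrays were fitted (highest adjusted p of the other settings 0.372). At 2 months the difference was -0.01, and the change between the ages had the smallest adjusted p of all genes without passing (0.168).

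Akr1c14 (chr13:4048991-4090560) encodes a 3-alpha-hydroxysteroid dehydrogenase, which reduces steroids such as dihydrotestosterone. Its signal was 10.43, 10.58, 10.71 and 10.74 in the knockout, against 11.20, 11.38 and 11.27 in wild type. The groups are separate, and the difference was -0.67 (SE 0.11, limma adjusted p = 0.00664), or 62.8% of the wild-type signal. The adjusted p reached 0.113 when a wild-type array was left out, and the call was lost without replicate 2 or replicate 3. At 2 months the difference was -0.18 (unadjusted p = 0.115).

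Tnfsf13b (chr8:10006229-10036000) encodes BAFF, a cytokine of the TNF superfamily that keeps B cells alive and is made largely by myeloid cells. The signal was 4.53, 4.48, 4.32 and 4.29 in the knockout, against 4.70, 5.29 and 4.90 in wild type. All knockout arrays lie below all wild-type arrays, and the gap to wild-type replicate 1 is the narrowest. The difference was -0.56 (SE 0.10, limma adjusted p = 0.0308). Its 2 dimmer probe sets had differences of -0.10 and 0.03 and did not pass. The other 18 measured members of a list of TNF superfamily ligands and receptors did not pass either, and the median over all 19 was 0.02.

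C1d (chr11:17257547-17269176), a cofactor of the nuclear RNA exosome that was also described as an activator of the DNA-dependent protein kinase, had a signal of 8.73, 8.89, 8.80 and 9.03 in the knockout and 9.18, 9.28 and 9.48 in wild type. The groups do not overlap. The difference was -0.45 (SE 0.09, limma adjusted p = 0.0462), close to the threshold, and it was lost in 5 of 7 fits that left out 1 array. It was the only one of 7 called genes with a promoter sequence that held an E2F motif (TTTCCCGC). Of 15 genes of the nuclear RNA exosome 13 lay higher in the knockout, with a median of 0.09, and C1d was the only member that passed. Its exosome partner Rbm7, an RNA-binding subunit of the nuclear exosome targeting complex, had a difference of -0.28 (adjusted p = 0.231).

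The remaining genes that fell were dim. Nutm1 (chr2:112247948-112259291), a testis gene whose human counterpart is fused to other genes in NUT carcinoma, lay at 3.64, 3.70, 3.29 and 3.58 in the knockout and at 3.87, 4.30 and 4.22 in wild type. Its difference was -0.58 (SE 0.10, limma adjusted p = 0.00664), although its signal stands at the 16.1th percentile of all genes. A530088E08Rik (chr17:32403014-32404808), known only by a clone name, lay at 4.84, 4.89, 4.75 and 4.71 in the knockout and at 5.15, 5.35 and 5.40 in wild type. Its difference was -0.50 (SE 0.09, adjusted p = 0.0117). In both genes the groups are separate by a narrow gap on the side of wild-type replicate 1.

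Yae1d1 (chr13:17986640-17993351) is the mouse relative of yeast Yae1, which takes part in delivering iron-sulfur clusters to a ribosome recycling factor. Its signal was 7.41, 7.46, 7.69 and 7.75 in the E2f7 knockout, against 7.12, 6.98 and 6.80 in wild type. The groups are separate, and the difference was 0.61 (SE 0.10, limma adjusted p = 0.00664), or 153% of the wild-type signal. It was the only gene that passed at 2 months too, on other arrays: there the signal was 8.35, 8.37, 8.33 and 8.27 in the knockout, against 7.63, 7.62 and 7.84 in wild type, a difference of 0.63 (SE 0.10, adjusted p = 0.0111). The probe sets of the gene did not all point one way. A second one had differences of 0.30 at 3 weeks and 0.31 at 2 months, and the dimmest had -0.25 and -0.31, none of them past the threshold. The call therefore rests on 1 probe set, and at 3 weeks it was lost in 3 of 7 fits that left out 1 array. The call at 2 months was lost in 4 of 7 such fits, with only the compared groups, without the run term and with the mean of all probe sets.

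Mettl21a (chr1:64606473-64620466), a methyltransferase that modifies a lysine of HSP70 chaperones, was the only call with overlapping groups. Its signal was 7.32, 7.35, 7.42 and 7.18 in the knockout, against 7.20, 6.63 and 6.67 in wild type. Knockout replicate 4 and wild-type replicate 1 overlap. The difference was 0.49 (SE 0.10, limma adjusted p = 0.0462), its other probe sets had differences of 0.10 and -0.09 without passing, and the call was lost in 5 of 7 fits that left out 1 array.

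**Figure D1:**
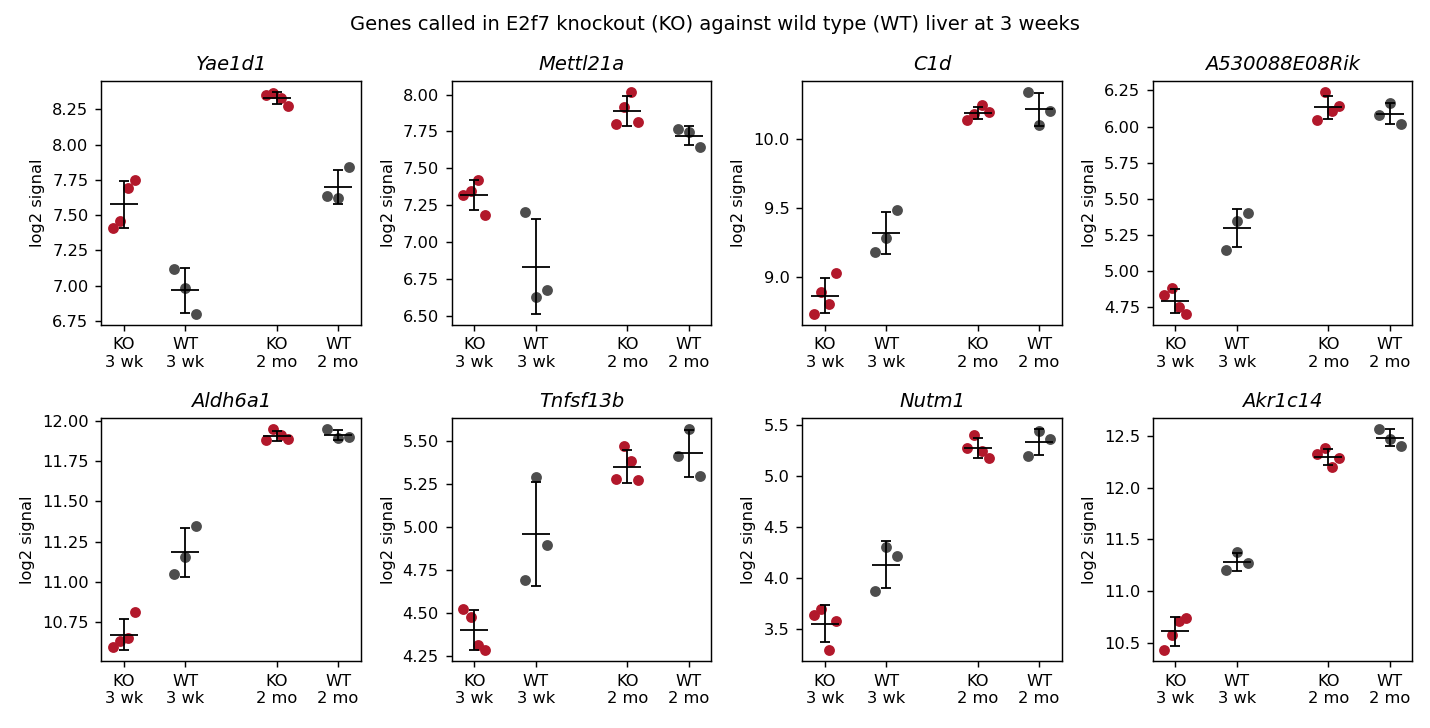
Log2 signal of the 8 genes past the threshold at 3 weeks, by array, in E2f7 knockout (KO, red) and wild-type (WT, grey) liver at 3 weeks (wk) and 2 months (mo); bars are the mean and SD of 4 KO and 3 WT arrays. Yae1d1 is the gene whose groups lie apart at both ages, and Aldh6a1 lies at 10.60 to 10.82 in KO and 11.05 to 11.35 in WT at 3 weeks with no gap at 2 months.

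The threshold fell within a run of similar genes. C1d and Mettl21a lay just inside it at 0.0462, while Ppp1cb, Plxna3, Il17a, Akr1c18, Rbm20, Plscr2 and Mrln lay just outside at an adjusted p of 0.0504. In all, 38 genes, these included, had an adjusted p between 0.05 and 0.10, of which 10 lay higher and 28 lower in the knockout. An unadjusted p under 0.001 with no overlap between the groups was reached by 38 higher genes (0.209% of all) and 65 lower genes (0.357%), called genes included. The largest differences among those that were not called are given next as values.

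Steroid-metabolizing aldo-keto reductases had the largest of these. Akr1c18 (chr13:4132615-4150646), the 20-alpha-hydroxysteroid dehydrogenase that inactivates progesterone, lay at 5.82, 7.05, 6.20 and 6.77 in the knockout and at 5.53, 5.44 and 5.51 in wild type, a difference of 0.97 (SE 0.20, adjusted p = 0.0504). Akr1c19 (chr13:4233503-4248361) lay at 9.88, 9.39, 9.30 and 9.35 in the knockout and at 8.55, 8.79 and 8.36 in wild type, a difference of 0.92 (SE 0.22, adjusted p = 0.0919). At 2 months the difference of Akr1c19 was 0.96 (unadjusted p = 0.000105) and that of Akr1c18 was 0.02. Hsd3b1, a 3-beta-hydroxysteroid dehydrogenase, had a difference of 0.90 (adjusted p = 0.294). The 18 measured genes of hydroxysteroid and steroid hormone metabolism had no common direction: 8 lay higher and 10 lower, with a median of -0.02, and 1 fell (Akr1c14).

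Among the genes lower in the knockout, Ang, the secreted ribonuclease angiogenin, lay at 10.04, 10.20, 10.01 and 10.42 in the knockout and at 10.65, 10.64 and 11.36 in wild type, a difference of -0.72 (SE 0.17, adjusted p = 0.0848). It was -0.48 without wild-type replicate 3. Its 3 probe sets had differences of -0.72 to -0.80, and the difference at 2 months was -0.64 (unadjusted p = 0.000583). Asb13, a substrate adaptor of an E3 ubiquitin ligase, had a difference of -0.52 at 3 weeks (adjusted p = 0.105) and of -0.56 at 2 months (unadjusted p = 0.000121). Ppp1cb, a catalytic subunit of protein phosphatase 1, had -0.56 (adjusted p = 0.0504) and at 2 months -0.27. Plscr2, of the phospholipid scramblase family, had -0.72 (adjusted p = 0.0504) but 0.10 at 2 months. The nuclear export factor Nxt2 had -0.60 (adjusted p = 0.0678) and Dse, the epimerase that makes dermatan sulfate, -0.57 (adjusted p = 0.138).

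On the higher side Rad54l, which drives strand exchange in homologous recombination, lay at 5.54, 5.54, 5.47 and 5.53 in the knockout and at 5.26, 4.99 and 4.50 in wild type. The knockout arrays hardly differ from each other while the wild-type arrays spread, and the difference was 0.60 (SE 0.14, adjusted p = 0.0819). Without wild-type replicate 3 it was 0.39. All 4 of its probe sets lay higher, by 0.30 to 0.60. Stil, which is needed to duplicate centrioles, had a difference of 0.44 (adjusted p = 0.0972) and of 0.27 at 2 months. Ppp1r13l, the p53 inhibitor iASPP, had 0.42 (adjusted p = 0.0786), the Mediator subunit Med12l 0.51 (adjusted p = 0.0972) and the glutamate receptor subunit Gria3 0.47 (adjusted p = 0.0961). The other probe set of Gria3 lay higher as well (0.35), while those of Ppp1r13l had 0.04, -0.20 and 0.09 and those of Med12l 0.01 and 0.07.

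None of the 13 E2F genes and dimerization partners passed, 8 of them lay higher, and the median was 0.04. E2f1, an activator and itself an E2F target, lay at 6.80, 6.86, 6.93 and 6.85 in the E2f7 knockout and at 6.73, 6.88 and 6.05 in wild type, a difference of 0.31 (SE 0.12, adjusted p = 0.309). The groups overlap, and the low wild-type value is that of replicate 3, without which the difference was 0.06. A dimmer probe set of E2f1 lay at 6.05, 6.32, 6.14 and 6.14 in the knockout and at 5.94, 5.78 and 5.27 in wild type. There the groups are separate, and the difference was 0.50 (adjusted p = 0.132 over all probe sets), while the dimmest one had 0.12. E2f8, the partner repressor, lay at 7.45, 7.71, 7.54 and 8.18 in the knockout and at 7.79, 7.21 and 6.45 in wild type, a difference of 0.57 (SE 0.35, adjusted p = 0.570). It overlaps as well and again has its lowest value on wild-type replicate 3, without which the difference was 0.22. The activator E2f3 had a difference of 0.16 and the repressor E2f4 of 0.22, and E2f2, E2f5 and E2f6 had -0.00, 0.04 and -0.01. The pocket protein gene Rbl1 had 0.30 (adjusted p = 0.629) and the DP partner Tfdp1 0.14 (adjusted p = 0.661).

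**Figure D2:**
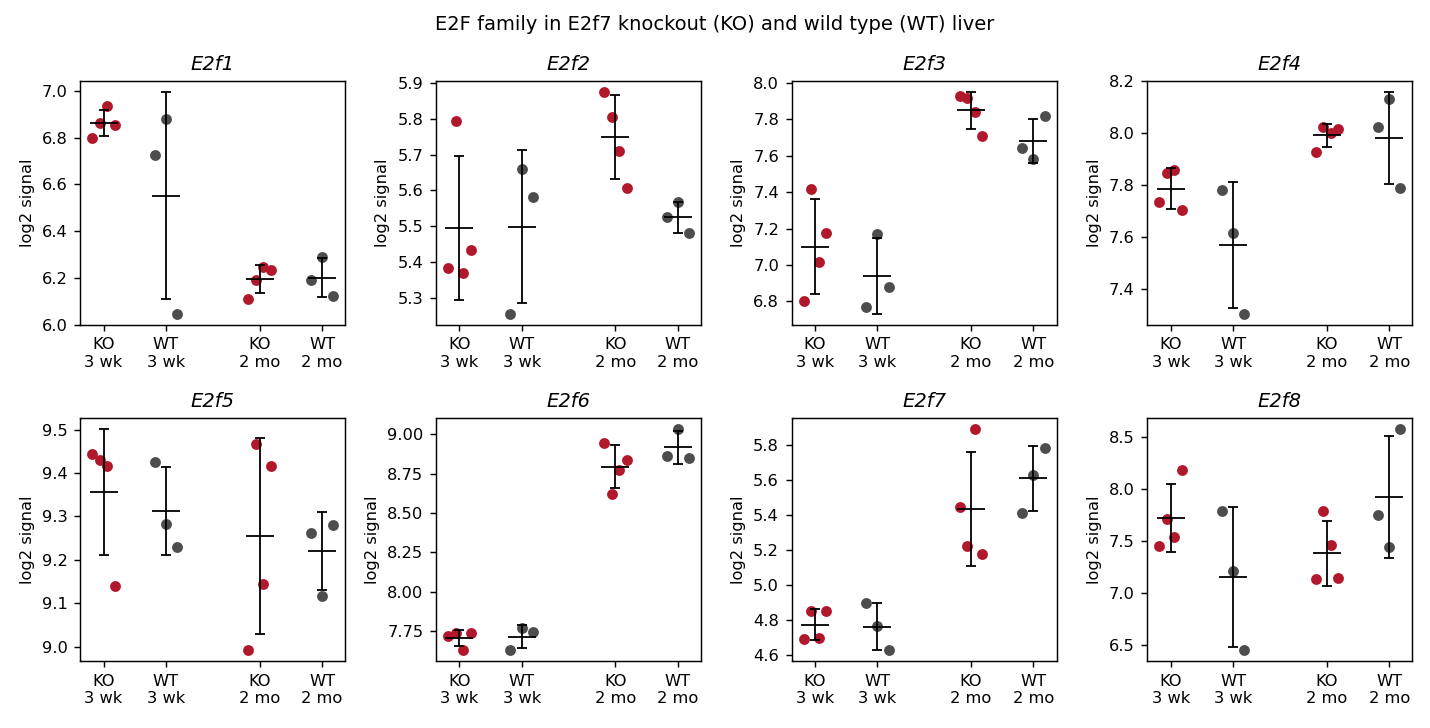
Log2 signal of E2f1 to E2f8 by array in E2f7 knockout (KO, red) and wild-type (WT, grey) liver at 3 weeks (wk) and 2 months (mo); bars are the mean and SD of 4 KO and 3 WT arrays. E2f7 overlaps between the groups, and E2f1 and E2f8 have their lowest 3-week value, 6.05 and 6.45, on wild-type replicate 3.

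The genes of DNA synthesis lay slightly higher in the E2f7 knockout as a group without any of them passing the test. Of 52 measured DNA replication genes 50 lay higher and 2 lower, with a median difference of 0.24; over all genes 51.5% lay higher, with a median of 0.004. For 7 of the 52 every knockout array exceeded every wild-type array, a pattern that 4.06% of all genes showed. The mean log2 signal of the 52 genes was 7.16, 7.40, 7.31 and 7.39 on the knockout arrays and 7.25, 7.16 and 6.82 on the wild-type arrays, so the groups overlap and wild-type replicate 3 is the lowest. The list mean was 7.317 in the E2f7 knockout, 7.155 on the 3-week arrays labelled E2f8 knockout and 7.221 in the double knockout, against 7.078 in wild type. The knockouts share these wild-type arrays. Without wild-type replicate 3 the median difference was 0.12.

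Among them Fen1, the flap endonuclease that trims Okazaki fragments, lay at 9.71, 9.83, 9.92 and 9.76 in the knockout and at 9.61, 9.44 and 9.22 in wild type. All knockout arrays exceed all wild-type arrays, and the difference was 0.39 (SE 0.10, adjusted p = 0.151). Pole2, a subunit of DNA polymerase epsilon, had a difference of 0.40 (SE 0.12, adjusted p = 0.176) and Prim2, the large primase subunit, of 0.36 (adjusted p = 0.342). Rrm2, the ribonucleotide reductase subunit that supplies deoxynucleotides, lay at 7.85, 8.11, 7.82 and 8.13 in the knockout and at 7.75, 7.45 and 6.94 in wild type, a difference of 0.60 (SE 0.28, adjusted p = 0.424). Without wild-type replicate 3 it was 0.38. Its groups are separate at 2 months too, with a difference of 0.69 (unadjusted p = 0.0202). The histone chaperone gene Asf1b had 0.26 (adjusted p = 0.372) and Orc6, of the origin recognition complex, 0.21 (adjusted p = 0.408). Rfc3, a clamp loader subunit, and Dnmt1, the maintenance DNA methyltransferase, whose promoter motifs are shown above, had differences of 0.30 (adjusted p = 0.468) and 0.23 (adjusted p = 0.471).

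Mitosis and cytokinesis genes also lay higher without passing. Of 67 measured, 63 lay higher, with a median of 0.22, and 0 passed. Their mean signal was 5.83, 6.02, 5.82 and 5.93 in the knockout and 5.86, 5.80 and 5.43 in wild type. The higher level was not particular to the E2f7 knockout, whose list mean was 5.902. It was 5.896 on the 3-week arrays labelled E2f8 knockout and 5.901 in the double knockout, against 5.695 in the shared wild type. Without wild-type replicate 3 the median was 0.07. The kinesin Kif20b had a difference of 0.57 (SE 0.19, adjusted p = 0.265) and the condensin subunit Ncapg of 0.35 (adjusted p = 0.281). Without that array they were 0.34 and 0.18. In a list of ploidy and cytokinesis regulators 16 of 23 lay higher, with a median of 0.07 (0.04 without that array), and Aurkb, the chromosomal passenger kinase, lay at 4.91, 5.10, 4.80 and 5.00 in the knockout and at 4.57, 4.65 and 4.34 in wild type, a difference of 0.43 (adjusted p = 0.309). Of 20 regulators of the G1/S step 16 lay higher, with a median of 0.05 (0.10 without that array). They include Skp2, the ubiquitin ligase subunit that removes p27, with a difference of 0.41 (adjusted p = 0.273), and the origin licensing factor Cdc6 with 0.51 (adjusted p = 0.359), or 0.22 without that array.

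DNA repair genes lay higher with or without that array. Of 30 measured, 28 lay higher, with a median of 0.18, or 0.12 without wild-type replicate 3. On the higher side 9 had an unadjusted p under 0.05, as did 5.67% of all genes, while 0 passed. The mean signal was 5.98, 6.05, 6.04 and 6.01 in the knockout and 5.93, 5.87 and 5.69 in wild type, so the groups do not overlap. The list mean was 6.023 in the E2f7 knockout, 5.927 on the 3-week arrays labelled E2f8 knockout and 5.931 in the double knockout, against 5.83 in the shared wild type. Beside Rad54l the repair genes hold Rad18, the ubiquitin ligase of damage tolerance. Its difference was 0.50 (adjusted p = 0.199), or 0.29 without wild-type replicate 3. The single-strand break scaffold Xrcc1 had 0.28 (adjusted p = 0.237), the Fanconi anaemia genes Fancg 0.28 (adjusted p = 0.247) and Fanca 0.26 (adjusted p = 0.281), and the BRCA1 partner Bard1 0.22 (adjusted p = 0.291). Of 26 p53 target genes 15 lay higher, with a median of 0.07, and the apoptosis-linked Phlda3 had the smallest p among them, with a difference of 0.36 (adjusted p = 0.176).

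**Figure D3:**
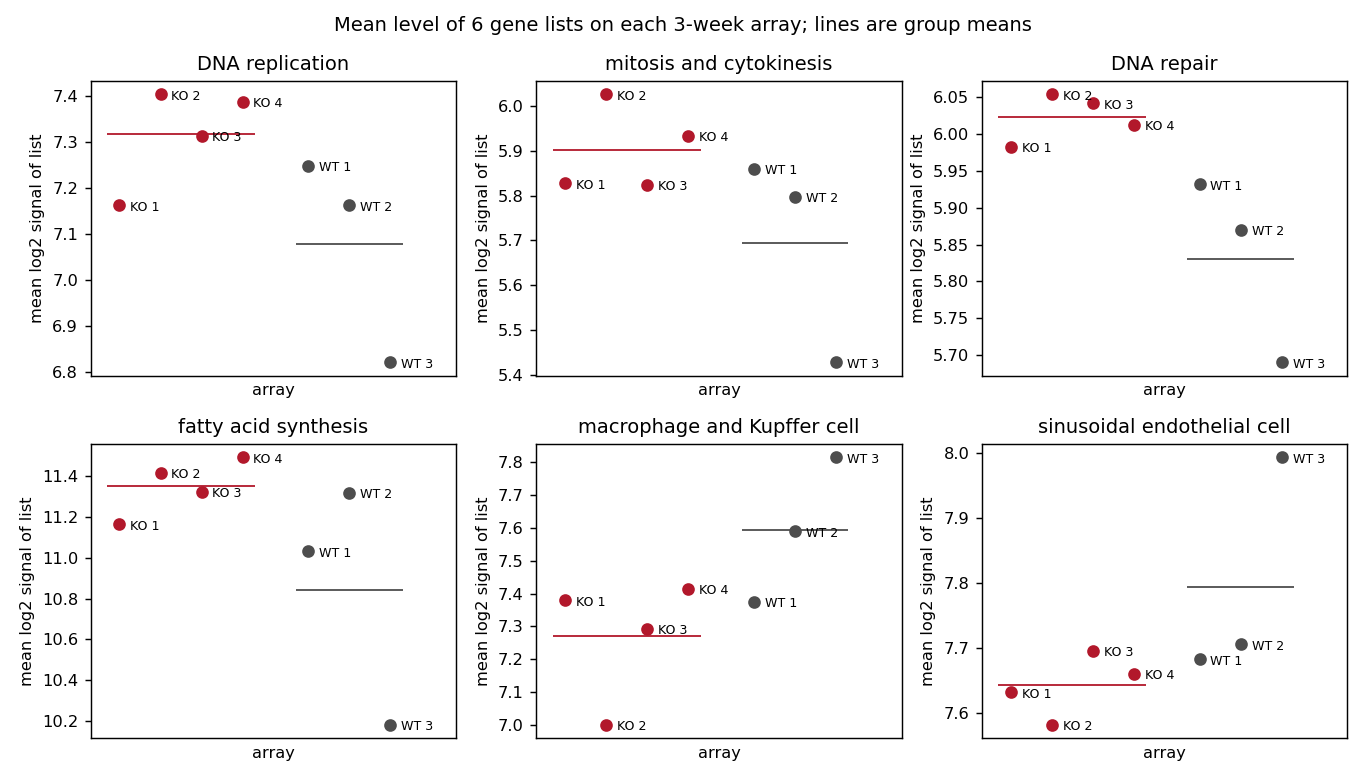
Mean log2 signal of 6 gene lists on each 3-week array, E2f7 knockout (KO, red) left of wild type (WT, grey), with a line at each group mean. Wild-type replicate 3 is the lowest array for replication (6.82), mitosis, repair and fatty acid synthesis genes and the highest for macrophage (7.81) and endothelial genes.

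Markers of macrophages and Kupffer cells, the liver's resident macrophages, lay lower in the knockout. Of 22 measured, 20 were lower and 2 higher, with a median of -0.33. On the lower side 10 had an unadjusted p under 0.05, as did 5.52% of all genes, while 0 passed. For 5 of them every knockout array lay below every wild-type array, as for 4.22% of all genes. In bulk RNA, fewer cells of a type and less RNA per cell cannot be told apart. The mean signal of the list was 7.38, 7.00, 7.29 and 7.41 in the knockout and 7.38, 7.59 and 7.81 in wild type. The groups overlap at wild-type replicate 1, and the median was -0.20 without wild-type replicate 3. The lower level was not particular to the E2f7 knockout, whose list mean was 7.272. It was 7.241 on the 3-week arrays labelled E2f8 knockout and 7.335 in the double knockout, against 7.593 in wild type. The knockouts share these wild-type arrays. C1qb, a chain of complement component C1q made by tissue macrophages, lay at 8.03, 7.50, 7.74 and 8.17 in the knockout and at 8.19, 8.49 and 8.69 in wild type. Its difference was -0.59 (SE 0.19, adjusted p = 0.229), and C1qa had -0.53 (adjusted p = 0.292). Adgre1, the gene of the F4/80 antigen, had -0.44 (adjusted p = 0.258), the scavenger receptor Marco -0.81 (adjusted p = 0.281) and Spic, the transcription factor of iron-recycling macrophages, -0.37 (adjusted p = 0.237). Without wild-type replicate 3 Marco had -0.27 and Adgre1 -0.21. At 2 months 19 of the 22 were lower in the knockout, with a median of -0.32, and C1qb had a difference of -0.54 (unadjusted p = 0.00742).

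The other cell marker lists had smaller median differences. Of 23 sinusoidal endothelial genes 19 lay lower. For 7 of the 23 every knockout array lay below every wild-type array, as for 4.22% of all genes. On the lower side 1 had an unadjusted p under 0.05, as did 5.52% of all genes. The median of -0.15 became -0.07 without wild-type replicate 3. Emcn, a sialomucin of endothelium, had a difference of -0.45 (adjusted p = 0.237), and the scavenger receptor Stab2 of -0.26 (adjusted p = 0.531). At 2 months the endothelial median was 0.01. Of 16 erythroid genes 12 lay lower, with a median of -0.09, which included the red cell anion exchanger Slc4a1 with -0.68 (adjusted p = 0.281), or -0.37 without that array. Medians of the stellate cell and fibroblast (-0.02), T, B and NK cell (0.00), cholangiocyte (-0.10) and neutrophil (-0.12) lists were small, and the cholangiocyte median was 0.01 and the neutrophil median -0.04 without that array. Whether the share of these cells bears on Tnfsf13b, which macrophages also make, was not tested.

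Fatty acid synthesis genes lay higher in the knockout at both ages without passing the test. Of 21 measured, 19 lay higher at 3 weeks, with a median of 0.37, and 20 at 2 months, with a median of 0.47, where 59.2% of all genes lay higher and the median over all genes was 0.02. At 3 weeks the mean signal was 11.16, 11.42, 11.32 and 11.49 in the knockout and 11.03, 11.32 and 10.18 in wild type, so wild-type replicate 3 stands far below, and the median was 0.16 without it. Fasn, the fatty acid synthase, lay at 11.94, 12.56, 12.06 and 12.31 in the knockout and at 11.59, 11.97 and 10.05 in wild type, a difference of 1.02 (SE 0.41, adjusted p = 0.334). At 2 months Fasn lay at 12.22, 11.41, 11.06 and 12.34 in the knockout and at 11.15, 10.51 and 10.70 in wild type, a difference of 0.97 (adjusted p = 0.593). Elovl6, which lengthens palmitate, had 1.43 at 3 weeks (adjusted p = 0.301), Pnpla3, a lipid droplet protein, 1.87 (adjusted p = 0.247), and Acaca, acetyl-CoA carboxylase, 0.56 (adjusted p = 0.319). Without wild-type replicate 3 the 3-week differences were 0.44 for Fasn, 0.50 for Elovl6, 0.94 for Pnpla3 and 0.29 for Acaca. Of 19 cholesterol synthesis genes 14 lay higher, with a median of 0.12 (0.05 without that array), and 18 did at 2 months, with a median of 0.25.

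Amino acid catabolism lay lower at 3 weeks. Of 25 genes of branched-chain and propionyl catabolism 19 lay lower and 6 higher, with a median of -0.12 (-0.08 without wild-type replicate 3), and 1 fell (Aldh6a1). The mean signal of this list was 9.652 in the E2f7 knockout, against 9.786 in wild type. The arrays labelled E2f8 knockout (9.602) and the double knockout (9.661) lay alike. Hibch, the hydrolase of valine breakdown that makes 3-hydroxyisobutyrate, lay at 9.12, 9.13, 9.05 and 9.38 in the knockout and at 9.33, 9.38 and 9.40 in wild type, a difference of -0.20 (SE 0.07, adjusted p = 0.307). Hibadh, the dehydrogenase directly before Aldh6a1, named here after its value was seen, had -0.09 (SE 0.07, adjusted p = 0.654). Dbt, the E2 core of the branched-chain keto acid dehydrogenase, had -0.32 (adjusted p = 0.331), Acadsb, the short/branched-chain acyl-CoA dehydrogenase, -0.19 (adjusted p = 0.346) and Mccc2, a carboxylase subunit of leucine breakdown, -0.23 (adjusted p = 0.362). Of 28 genes of the urea cycle and other amino acid catabolism 24 lay lower, with a median of -0.14 (-0.08 without that array). On the lower side 10 had an unadjusted p under 0.05, as did 5.52% of all genes, while 0 passed. For 7 every knockout array lay below every wild-type array, as for 4.22% of all genes. The list mean was 11.286 in the E2f7 knockout, 11.35 on the arrays labelled E2f8 knockout and 11.335 in the double knockout, against 11.435 in wild type. The carbamoyl phosphate synthetase Cps1 had a difference of -0.19 (SE 0.06, adjusted p = 0.184), Tdo2, the first enzyme of tryptophan breakdown, -0.27 (adjusted p = 0.176), and Aass of lysine breakdown -0.46 (adjusted p = 0.176). At 2 months these lists lay on the other side, with medians of 0.13 and 0.12, and 21 of 25 and 26 of 28 genes were higher.

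Hepatocyte identity genes differed little, with 21 of 26 lower and a median of -0.06. The master regulator Hnf4a had a difference of -0.15 (adjusted p = 0.534). Of 15 pericentral genes 14 lay lower, with a median of -0.14 (-0.08 without wild-type replicate 3), and of 29 genes of xenobiotic metabolism 22 lay lower, with a median of -0.16 (-0.12 without it), including Cyp2c29 with -0.30 (adjusted p = 0.211). At 2 months 27 of these 29 lay higher, with a median of 0.33. The acute phase (-0.06), unfolded protein response (0.06), interferon (0.02) and fetal liver (0.04) lists lay near the median of all genes. The fetal liver list counted Nckap1 in place of H19, because the symbols were matched through a synonym. Within the unfolded protein response list Canx, the calnexin chaperone of the endoplasmic reticulum, nonetheless had a difference of -0.37 (SE 0.08, adjusted p = 0.0603). At 2 months the acute phase list had a median of -0.45 and the unfolded protein response list of -0.33. The mean signal of the acute phase list there was 11.22, 11.155, 11.416 and 11.208 in the knockout. In wild type it was 12.594, 12.528 and 11.283, so the groups overlap at wild-type replicate 3.

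**Figure D4:**
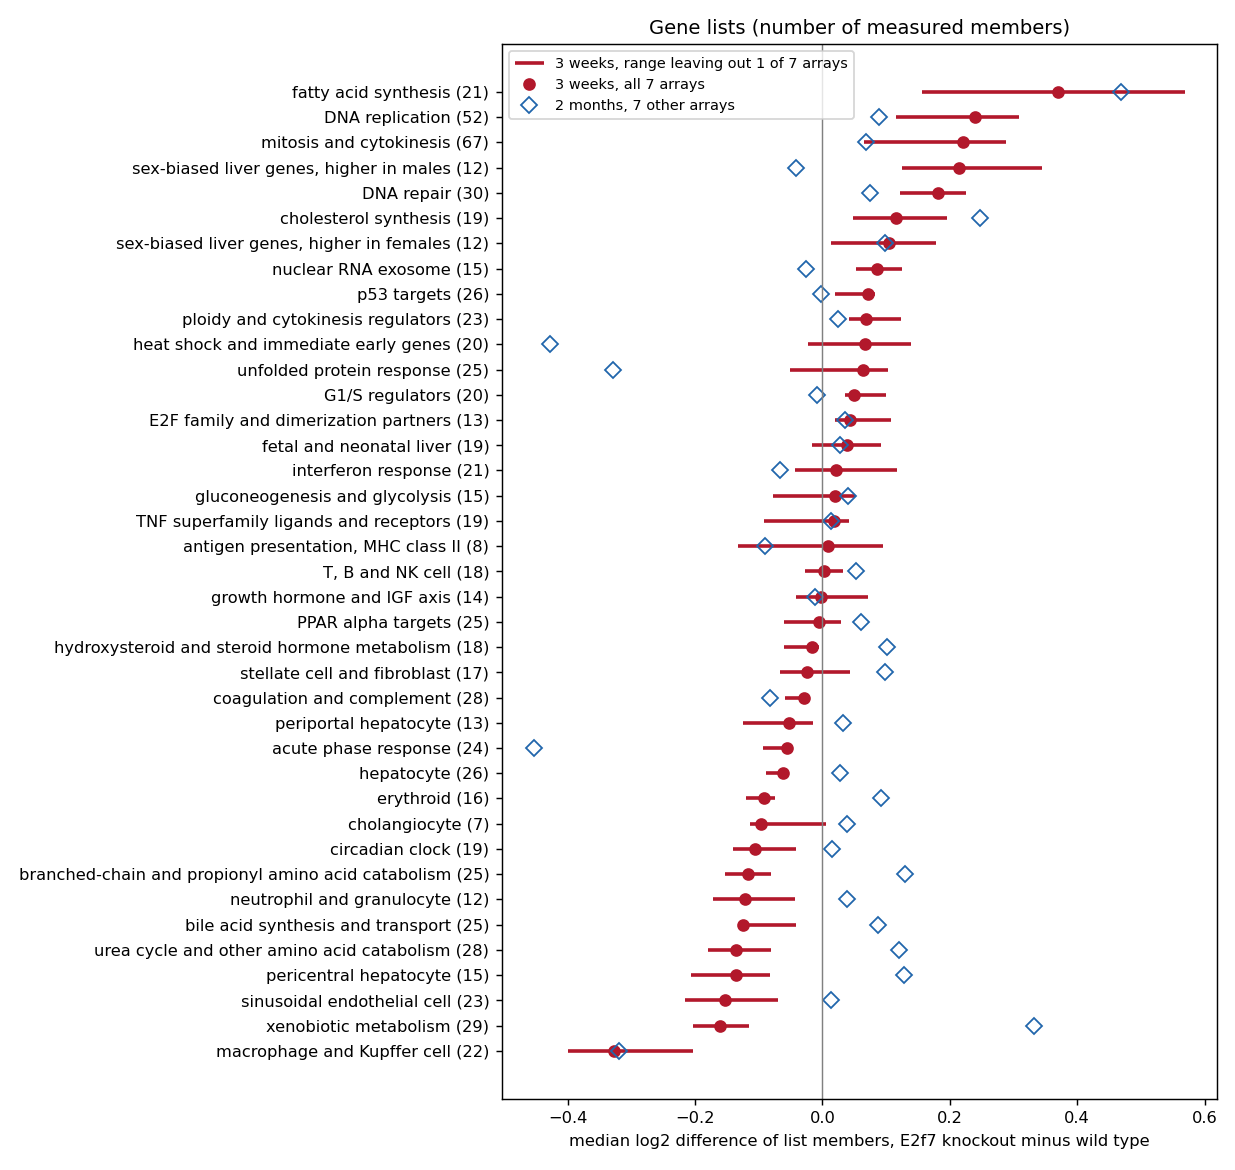
Median log2 difference, E2f7 knockout minus wild type, of the members of 39 gene lists at 3 weeks (red points, with a line for the range over 7 fits that leave out 1 array) and at 2 months on other arrays (open diamonds). Fatty acid synthesis, replication and mitosis lists have the highest 3-week medians (0.37, 0.24 and 0.22), and the macrophage list the lowest (-0.33).

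The effect of E2f7 loss at 3 weeks was set against that at 2 months, measured on arrays of another run, so only differences within an age are compared. At 2 months 1 gene (0.0055%) passed, Yae1d1, and an unadjusted p under 0.05 was reached by 1279 genes (7.03%). No gene passed the test of the change between the ages with limma, which 1249 genes (6.87%) reached at an unadjusted p under 0.05. Of the 8 genes called at 3 weeks 7 had the same sign at 2 months, and 1 of these had an unadjusted p under 0.05 there. Of all genes 54% had the same sign at both ages. Of the 2036 genes with an unadjusted p under 0.05 at 3 weeks, 63.8% did. Among the 20 genes with the largest differences, 16 kept their sign and 6 also had an unadjusted p under 0.05 at 2 months. Both held for 777 of all 18193 genes and for 147 of the 2036 genes.

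**Figure D5:**
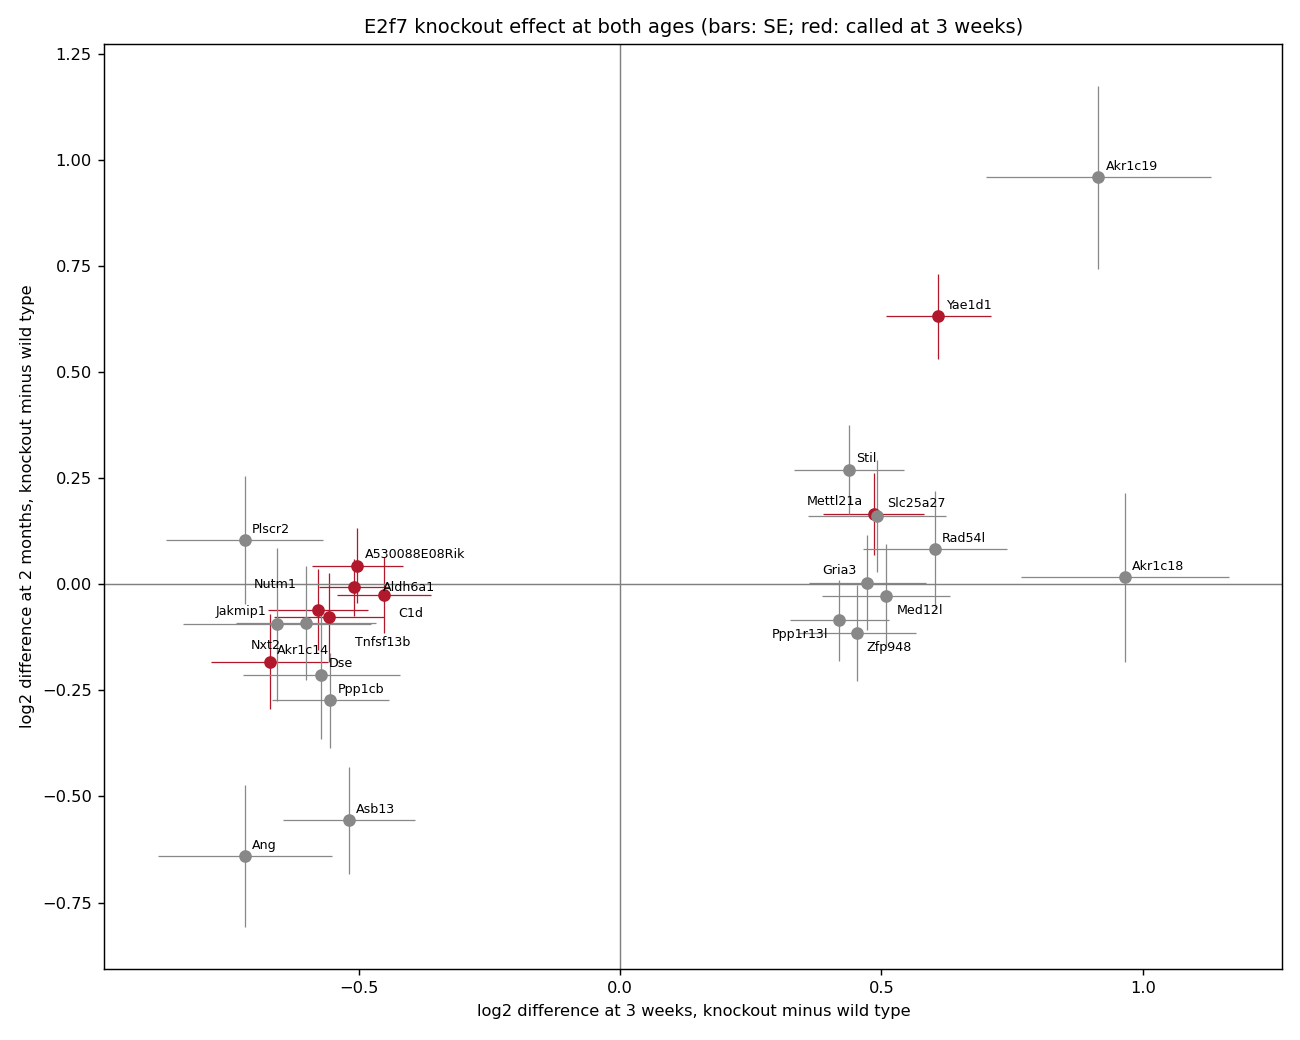
Log2 difference, E2f7 knockout minus wild type, at 3 weeks (horizontal) and at 2 months (vertical) of the genes past the threshold at 3 weeks (red) and the other genes with the largest differences (grey); bars are standard errors. Akr1c19 and Yae1d1 lie high at both ages (0.92 and 0.96, 0.61 and 0.63), Ang and Asb13 low at both, and most others near 0 at 2 months.

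Against the other knockouts of the same age, no gene of the 8 differed past the threshold. The arrays labelled E2f8 knockout did not show a lower E2f8 signal: it was 9.30, 8.91, 8.85 and 8.75 there, against 7.79, 7.21 and 6.45 in wild type (means of 8.95 and 7.15, adjusted p = 0.00549). The sources used here do not place the E2f8 probes relative to the deleted part, so the genotype of these arrays is taken from the label alone. The E2f7 knockout was compared directly with the arrays labelled E2f8 knockout, which gave 349 calls over all genes (1.92%), and with the double knockout, which gave 22 (0.121%). Their differences ran from -0.23 to 0.14 against the E2f8 knockout and from -0.22 to 0.08 against the double knockout. Aldh6a1 had a difference of -0.14 from the E2f8 knockout (adjusted p = 0.283) and of -0.13 from the double knockout (adjusted p = 0.573). Of 127 named genes 13 passed against the E2f8 knockout and 2 against the double knockout. Most of the named genes were chosen for their difference from wild type on the same E2f7 knockout arrays. These counts therefore cannot be set against those over all genes. The E2f8 signal was lower in the E2f7 knockout than on the arrays labelled E2f8 knockout (-1.23, SE 0.32, adjusted p = 0.0398), although its mean was not below that of wild type. Asb13 was lower too (-0.58, adjusted p = 0.00759), and Bcat2, the mitochondrial branched-chain aminotransferase, was lower than in both (-1.62, adjusted p = 0.00195, and -1.46, adjusted p = 0.0204). Bcat2 did not pass against wild type, where no member of its branched-chain list had a difference below -0.604. The gaps to the other knockouts are thus larger than any fall from wild type. Gpam, the first enzyme of triglyceride synthesis, was higher than in the E2f8 knockout (0.61, adjusted p = 0.0228), as was the p53 target Phlda3 (0.48, adjusted p = 0.00759).

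Tested one probe set at a time, 61 of 45037 probe sets passed (0.135%), 16 higher and 45 lower, and they included those of all 8 genes. Of these, 46 carried 1 symbol, from 44 genes, and 20 were the brightest of their gene. Some bright liver genes thus passed in part of their probe sets, and those named next were chosen after their values were seen. Both probe sets of Cat, the peroxisomal catalase, fell (-0.49, adjusted p = 0.0271, and -0.30, adjusted p = 0.0495). Of Cox5a, a cytochrome c oxidase subunit, 2 probe sets fell (-0.38, adjusted p = 0.0109, and -0.30, adjusted p = 0.0232) while the brightest did not (-0.02, adjusted p = 0.955). Of Cenpk, a kinetochore protein of the mitosis list, 1 probe set rose: it lay at 4.54, 4.64, 4.64 and 4.49 in the knockout and at 4.21, 4.24 and 3.94 in wild type, a difference of 0.45 (SE 0.09, adjusted p = 0.0382). The brightest probe set of Cenpk had 0.41 (adjusted p = 0.574) and the dimmest 0.07. Of Otc, the urea cycle enzyme ornithine transcarbamylase, 1 fell (-0.53, adjusted p = 0.0244) and the brightest had -0.15 (adjusted p = 0.326).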

How the data were processed

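Per the submitters' processing notes, the authors summarised the probe sets with RMA, which gives log2 signals; the notes give no version. The deposited log2 values of 45101 probe sets were used as given. The precision is limited by the number of arrays, which carry no read depth. Controls (64) and probe sets without a single symbol were dropped. Each of 18193 genes was represented by the probe set with the highest mean over 35 arrays, with positions from GRCm38.p6 for 18145.

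Groups come from the labels. The sorted values fell into 3 sets, treated as normalization runs; all 15 arrays at 3 weeks lie in 1. limma 3.58.1 (R 4.3.3) was fitted to group means of all 35 arrays with a term for the second 2-month run and an intensity trend (25 residual degrees of freedom), with calls at a Benjamini-Hochberg adjusted p below 0.05 over all genes. Adjusted p-values are from this fit. Python 3.11.15, scipy 1.17.1 and matplotlib 3.10.9 made the permutation test and figures.

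The members, the 39 gene lists (840 genes, 774 measured), the tests and the alternatives were chosen with earlier results of these data known. Named were E2f1 to E2f8, every called gene, the 10 largest rises and 10 largest falls with an unadjusted p under 0.001 and no overlap of the groups, and from each list the 2 members with the smallest p, up to 6 for 9 lists. Alternatives were other sets of arrays, quantile normalization, a filter on the dimmest 40%, averaged probe sets, no trend, array weights, no run term, the replicate number as a block and each array left out.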

Additional observations from a re-analysis of the deposited data

Results flagged for a closer look

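Among 127 named genes, 9 (7.09%) had 1 of the 4 E2f7 knockout arrays at 3 weeks far from the other 3, by Dixon's criterion, which flags about 1 in 20 groups by chance. The lone array was high for E2f2 (5.79), Akr1c19 (9.88), Med12l (7.90), Jakmip1 (3.79), Gzma (5.76) and Lin28b (2.33). It was low for E2f5 (9.14), Emcn (5.01) and Mrc1 (8.95). Of these genes Akr1c19, Med12l and Jakmip1 are among those with the largest differences from wild type, and none of the 9 passed the test.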

How the results depend on the processing

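The count of 8 genes depended on how the spread was estimated. With only the compared groups, or only the 3-week arrays, 0 genes passed, as with the 3-week arrays without wild-type replicate 3, a setting chosen after seeing the data. Array weights gave 19 genes and no run term 2. Leaving out 1 array gave 1 to 265 genes. Same-numbered knockout and wild-type arrays deviated together with correlations of 0.24, 0.19 and -0.10, and arrays with unlike numbers with -0.215 to 0.134. The labels do not state a pairing, and these values do not settle whether the numbers pair the samples. With the replicate number as a block 32 genes passed at 3 weeks and 0 at 2 months. At 2 months the single gene became 3 with quantile normalization, 0 with the mean of probe sets, 59 with array weights, 40 without the run term and 0 to 39 leaving out 1 array; the 40 did not include Yae1d1. The 0 genes that changed with age became 1 with array weights and 0 to 9 leaving out 1 array. In no setting did a called gene turn its sign. The causes were not tested. The comparison rests on 7 arrays, which limits its precision.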

Other observations

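The start of chromosome 13 held several of the genes described above, a pattern noticed after their values were seen. Of 18 measured genes between 3 and 5 megabases, 7 had an unadjusted p under 0.05 at 3 weeks, as did 11.2% of all genes. Of the 18, 4 (Asb13, Akr1c14, Akr1c18 and Akr1c19) were among the 103 genes with an unadjusted p under 0.001 and no overlap between the groups. Chromosome 13 carried 11 of the 102 such genes with a position (10.8%), against 705 of all measured genes with a position (3.89%). The directions were mixed: Asb13 (-0.52) and Akr1c14 (-0.67) were lower in the E2f7 knockout, and Akr1c18 (0.97) and Akr1c19 (0.92) higher.

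The neighbours did not share the pattern of ages and genotypes. Tasor2 (chr13:3566035-3612884) and Asb13 (chr13:3633589-3653822), which lie side by side, were lower in the E2f7 knockout at 3 weeks (-0.45 and -0.52) and at 2 months (-0.80, unadjusted p = 0.000773, and -0.56, unadjusted p = 0.000121). On the arrays labelled E2f8 knockout at 3 weeks they differed from the same wild-type arrays by 0.04 and 0.06, and in the double knockout by -0.18 and -0.22. Akr1c14 differed by -0.65 on the arrays labelled E2f8 knockout (adjusted p = 0.00207) and by -0.57 in the double knockout (adjusted p = 0.0216), and Akr1c19 by 0.62 (adjusted p = 0.134) and 1.02 (adjusted p = 0.0254). The knockouts share their wild-type arrays, so these values are not independent of each other. The other aldo-keto reductase genes of the cluster, Akr1c13, Akr1c12, Akr1c6, Akr1c20 and Akr1c21, had differences of -0.03 to -0.23 in the E2f7 knockout at 3 weeks. Akr1e1 (chr13:4591123-4609164), which follows them, lay the other way without overlap between the groups at 3 weeks, with 0.17 (unadjusted p = 0.0548) and at 2 months with 0.22 (unadjusted p = 0.0152).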
